A study of Mus musculus with 48 samples.

Results

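Lymphatic endothelial cells (LECs) of the heart were compared with those of the diaphragm within the same control mice. The comparison holds 8 of the 48 RNA-seq libraries of the series, chosen by their labels: 4 libraries of heart LECs and 4 of diaphragm LECs, 1 of each from the control mice numbered 1, 5, 9 and 11. The mice were males, C57BL/6 by the labels, from a line made in C57BL/6J embryos with an IRES-eGFP cassette knocked in at Prox1, so every group, controls included, carries the reporter, and LECs were sorted as live, CD31-positive, CD45.2-negative, eGFP-positive cells. The controls received bovine serum albumin from a minipump for the weeks in which other mice received angiotensin II. By the labels mouse 1 was 9 months old and sequenced in batch 1, mouse 5 was 8 months old and in batch 2, and mice 9 and 11 were 16 months old, in batch 1 and batch 2 respectively. Blood endothelial cells (BECs) and cardiomyocytes from the hearts of the same 4 mice served as references. By the labels the BEC libraries were in the batch of the LEC libraries of their mouse, and all cardiomyocyte libraries were in batch 3. Cell type and batch therefore cannot be told apart where LECs are set against cardiomyocytes. So did 7 treated mice with both LEC populations, 4 infused with angiotensin II (8 to 16 months old) and 3 with angiotensin II and VEGFCc156s, a variant of VEGF-C (8 to 15 months old).

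Lymphatic capillaries take up fluid, macromolecules and leukocytes through loosely joined LECs, and collecting vessels with valves carry the lymph away. LEC identity depends on the transcription factor Prox1 and on signalling by VEGF-C through its receptor VEGFR3, which Flt4 encodes. Cardiac lymphatics drain the ventricular wall, and diaphragmatic lymphatics drain both the muscle and, through openings on its peritoneal face, the abdominal cavity.

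The authors deposited TPM values, the length-normalised share of each gene in the RNA of its library, a unit which keeps no read number, so depth is unknown and 16131 to 24086 genes in the heart LEC and 12924 to 18116 in the diaphragm LEC libraries reached 1 TPM. Both populations carried the markers of their label. Prox1 was at 176, 205, 131 and 193 TPM in the heart LECs of mice 1, 5, 9 and 11 and at 257, 225, 185 and 259 TPM in their diaphragm LECs. These ranges overlap, and heart BECs had a mean of 4.57 TPM. Podoplanin (Pdpn), a membrane mucin of LECs, was at 63.7 ± 21.1 TPM (SD, n = 4 mice here and below) in heart and 102 ± 22.4 TPM in diaphragm LECs. Of the libraries, that of diaphragm LECs of mouse 5 stood apart by cardiac RNA and that of diaphragm LECs of mouse 9 by RNA of several other cell types, with values given below.

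Every difference below is heart minus diaphragm on the scale log2(TPM + 1), from a limma fit with the mouse as a block, and adjusted p is the Benjamini-Hochberg value over the 16909 genes tested. In this fit 177 genes differed at an adjusted p under 0.05, of which 106 were higher in heart LECs (0.627% of the genes tested) and 71 were higher in diaphragm LECs (0.420%). Each of these genes had the same direction in 4 of 4 mice, which a call in a paired fit of 4 mice nearly requires. Of all 16909 genes tested, 2073 were higher in heart and 1500 higher in diaphragm LECs in 4 of 4 mice. The libraries of the 2 tissues did not overlap for 93 of the 106 and 63 of the 71, against 4.05% and 3.26% of all genes tested. The heart-higher genes lay further apart, with a median difference of 2.47 against -1.14 for the diaphragm-higher genes, and 64 against 10 genes differed by at least 2. The median over all genes tested was 0.079, and -0.078 after quantile normalization. Within batch 1 alone (2 mice) 152 genes passed, 79 of them among the 177, and within batch 2 alone (2 mice) 390 passed, 155 of them among the 177. Without mice 5 and 9, whose diaphragm libraries stood apart, 83 genes passed (63 higher in heart, 20 higher in diaphragm), 67 of them among the 177. Leaving out 1 mouse gave 161 genes without mouse 1, 120 without mouse 5, 87 without mouse 9 and 65 without mouse 11. For every gene list below, the background of its calls is 0.627% of all genes tested for heart and 0.420% for diaphragm LECs.

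**Figure D1:**
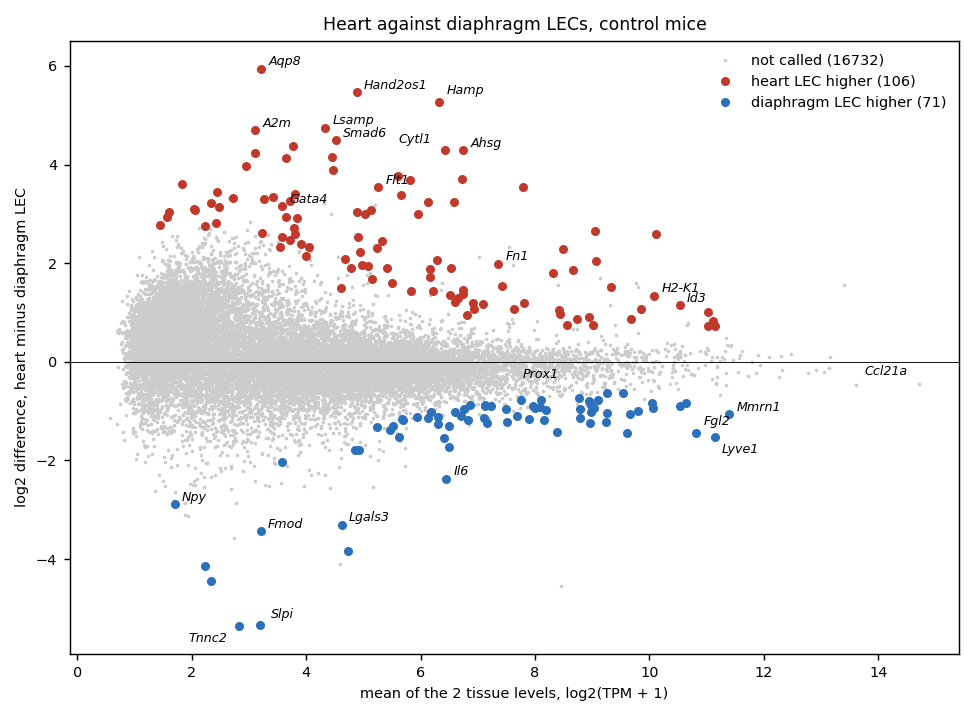
Difference between heart and diaphragm LECs (vertical axis, log2(TPM + 1), heart minus diaphragm) against the mean of the 2 tissue levels (horizontal axis, log2(TPM + 1)) of each of the 16909 genes tested, with the 106 heart-higher and 71 diaphragm-higher genes coloured. The heart-higher genes reach larger differences than the diaphragm-higher genes, with a median of 2.47 against -1.14.

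Transcription factors that pattern the heart were present in heart LECs. Of 14 such factors 7 passed the filter on low values, 3 rose in heart LECs and 0 in diaphragm LECs (0.627% of all genes tested rose in heart), and the median of the 7 was 1.605. Gata4, a zinc-finger factor of cardiac and endocardial development, was at 21.1, 41.3, 33.0 and 38.5 TPM in heart LECs and at 0.908, 3.14, 5.81 and 2.72 TPM in diaphragm LECs. All heart libraries lay above all diaphragm libraries, by 3.15 (SE 0.42, adjusted p = 0.00534). Its relative Gata6 was at 33.0 ± 13.0 TPM against 5.72 ± 3.01 TPM, a difference of 2.38 (SE 0.45, adjusted p = 0.0363). In heart BECs Gata4 ranged from 15.9 to 32.0 TPM and Gata6 from 26.3 to 48.6 TPM, overlapping the heart LECs.

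Hand2, a basic helix-loop-helix factor of the developing heart, was at 4.28, 5.01, 7.12 and 13.9 TPM in heart LECs and listed at 0, 0.104, 0 and 0 TPM in diaphragm LECs, a difference of 2.94 (SE 0.55, adjusted p = 0.0361). The transcript Hand2os1, which in RefSeq starts next to Hand2 on the other strand, was at 224, 96.8, 276 and 182 TPM in heart LECs and at 3.26, 1.12, 4.41 and 5.01 TPM in diaphragm LECs, a difference of 5.47 (SE 0.28, adjusted p = 1.59e-05). Diaphragm LECs thus had at most 5.01 TPM of the pair in any library. In heart BECs Hand2os1 had a mean of 52.3 TPM and in cardiomyocytes of 49.9 TPM, both below the lowest heart LEC library. In GENCODE, Hand2 lies at chr8:57320983-57324633 on the plus strand of GRCm38 and Hand2os1 at chr8:57281117-57324233 on the minus strand. Hand2 thus overlaps the span of Hand2os1 and reaches past its end. Since the library kit does not keep the strand, reads of the overlap cannot be told apart. The calls of Gata4, Gata6 and Hand2 were lost without mouse 11 and within batch 1, and those of Gata6 and Hand2 also without any other single mouse and after quantile normalization. All 3 were lost without mice 5 and 9.

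The start regions of this pair are shown because both members moved together and the windows, each from 250 bases before to 50 bases after the start site in RefSeq (GRCm38.p6), share 223 bases. Capitals mark the match to the GATA-binding letters AGATAA, read on both strands. The Hand2 window is chr8:57320733-57321032, plus strand, and the Hand2os1 window chr8:57320810-57321109, minus strand. This RefSeq start of Hand2os1 differs from that of its GENCODE span, which begins on the minus strand near the far end of Hand2.
Hand2: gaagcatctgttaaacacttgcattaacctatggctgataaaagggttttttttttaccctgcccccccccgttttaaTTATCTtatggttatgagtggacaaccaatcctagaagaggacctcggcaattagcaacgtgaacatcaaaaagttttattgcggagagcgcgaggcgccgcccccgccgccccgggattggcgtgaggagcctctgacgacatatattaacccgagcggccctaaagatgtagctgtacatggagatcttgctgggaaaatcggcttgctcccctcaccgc
Hand2os1: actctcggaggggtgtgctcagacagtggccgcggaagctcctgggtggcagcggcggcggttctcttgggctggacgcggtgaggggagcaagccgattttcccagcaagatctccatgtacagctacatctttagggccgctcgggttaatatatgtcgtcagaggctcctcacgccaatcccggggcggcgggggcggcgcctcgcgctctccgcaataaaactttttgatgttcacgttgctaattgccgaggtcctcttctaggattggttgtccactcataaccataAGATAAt
The match is the same stretch of DNA in both, and its first base lies 172 bases before the Hand2 start. Of the 27025 genes with a window 12.7% hold these letters, against 10 of 70 heart-higher genes with a window (14.3%) and 6 of 56 diaphragm-higher genes (10.7%). A match of letters is a description of the sequence and no evidence of binding.

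Genes of BMP signalling differed as well. BMP receptors act through SMAD proteins that induce the Id genes and, as a brake, the inhibitory Smad6. Of 19 genes of TGF-beta and BMP signalling, all tested, 4 rose in heart LECs (Smad6, Id3, Id1 and Eng) and 1 rose in diaphragm LECs (Tgfbr2), with a median of 0.282 that turned to -0.14 after quantile normalization. Smad6 was at 55.7, 110.3, 96.1 and 131 TPM in heart LECs and at 3.67, 1.33, 10.8 and 1.48 TPM in diaphragm LECs. The lowest heart library lay well above the highest diaphragm library, that of mouse 9, and the difference was 4.49 (SE 0.48, adjusted p = 0.00123). Heart BECs had 75.4 TPM of Smad6 on average. The Smad6 window, chr9:64022010-64022309 on the minus strand (GRCm38.p6), holds the SMAD palindrome GTCTAGAC, in capitals, whose first base is 4 bases before the start site.
Smad6: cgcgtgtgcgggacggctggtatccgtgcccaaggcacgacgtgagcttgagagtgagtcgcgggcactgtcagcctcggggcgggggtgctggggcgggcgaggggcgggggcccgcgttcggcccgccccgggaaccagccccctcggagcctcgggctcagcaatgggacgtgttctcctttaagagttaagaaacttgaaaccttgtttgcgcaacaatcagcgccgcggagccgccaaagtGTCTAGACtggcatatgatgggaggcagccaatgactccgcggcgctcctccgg
These letters occur in 0.248% of the 27025 genes with a window. They occur in 1 of 70 heart-higher genes (1.43%), Smad6 itself, and in 1 of 56 diaphragm-higher genes (1.79%), Tnfaip3. Here too a match of letters is no evidence of binding.

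Id3 and Id1, inhibitors of basic helix-loop-helix factors, were among the most abundant of these genes. Id3 was at 2052, 2238, 2066 and 2420 TPM in heart LECs and at 945, 1060, 987 and 969 TPM in diaphragm LECs, a 2.22-fold difference of means with little spread within each tissue (log2 difference 1.15, SE 0.11, adjusted p = 0.000568). Id1 was at 1341 ± 359 TPM against 629.7 ± 129.7 TPM (1.07, adjusted p = 0.00193). Endoglin (Eng), a co-receptor for BMP9, was at 496 ± 146 TPM against 233 ± 31.5 TPM (1.05, adjusted p = 0.00696). The TGF-beta receptor Tgfbr2 went the other way, with 374 ± 71.4 TPM in heart and 641 ± 60.8 TPM in diaphragm LECs (-0.79, adjusted p = 0.0303). Heart BECs had higher means than heart LECs of Id3, Id1 and Eng, at 2625, 2550 and 579 TPM. Their means of Smad6 and Tgfbr2 were lower than in heart LECs, at 75.4 and 111 TPM. Without mice 5 and 9, 3 members still rose in heart and 0 in diaphragm LECs.

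Further genes were named for the size of their difference. The water channel Aqp8 (chr7:123462291-123468004) was at 122, 51.8, 50.1 and 69.6 TPM in heart LECs and listed at 0, 0, 0.62 and 0 TPM in diaphragm LECs. It was the largest difference among the genes named by the rule, 5.95 (SE 0.49, adjusted p = 0.000191), and heart BECs had a mean of 0.144 TPM. Hepcidin (Hamp), the peptide that controls iron export, was at 378, 464, 399 and 406 TPM in heart LECs and at 3.79, 14.4, 36.8 and 3.56 TPM in diaphragm LECs, a difference of 5.28 (SE 0.43, adjusted p = 0.000191). Its heart values lay within a narrow range, far above all diaphragm libraries. Cardiomyocytes had 139.8 TPM of Hamp on average, below each heart LEC library. Fetuin-A (Ahsg), a plasma protein that inhibits mineral deposition, was at 473 ± 97.8 TPM against 23.2 ± 4.91 TPM, a difference of 4.29 (SE 0.18) with the lowest adjusted p of all genes, 4.27e-06.

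Alpha-2-macroglobulin (A2m), a protease inhibitor, reached 26.6 to 56.0 TPM in heart LECs and at most 1.46 TPM in diaphragm LECs. The cytokine-like protein Cytl1 was at 364 ± 69.7 TPM against 19.3 ± 9.74 TPM (4.29, adjusted p = 5.83e-05), and in heart BECs it was higher still, at 531 TPM. Lsamp, a neural cell adhesion protein, was at 97.6 ± 24.2 TPM against 3.09 ± 2.53 TPM, and Coch, an extracellular protein known from the inner ear, at 79.5 ± 25.2 TPM against 5.10 ± 3.88 TPM. Rnase1, a secreted ribonuclease, was at 50.0 ± 31.0 TPM against 2.04 ± 1.94 TPM, and soluble epoxide hydrolase (Ephx2) at 181 ± 66.3 TPM against 12.0 ± 3.81 TPM. The ephrin receptor Epha7, the membrane traffic protein Rab11fip1 and the PDGF receptor-like Pdgfrl had differences of 3.98, 4.23 and 4.15. All of these genes were also higher in heart LECs in 7 of 7 treated mice.

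**Figure D2:**
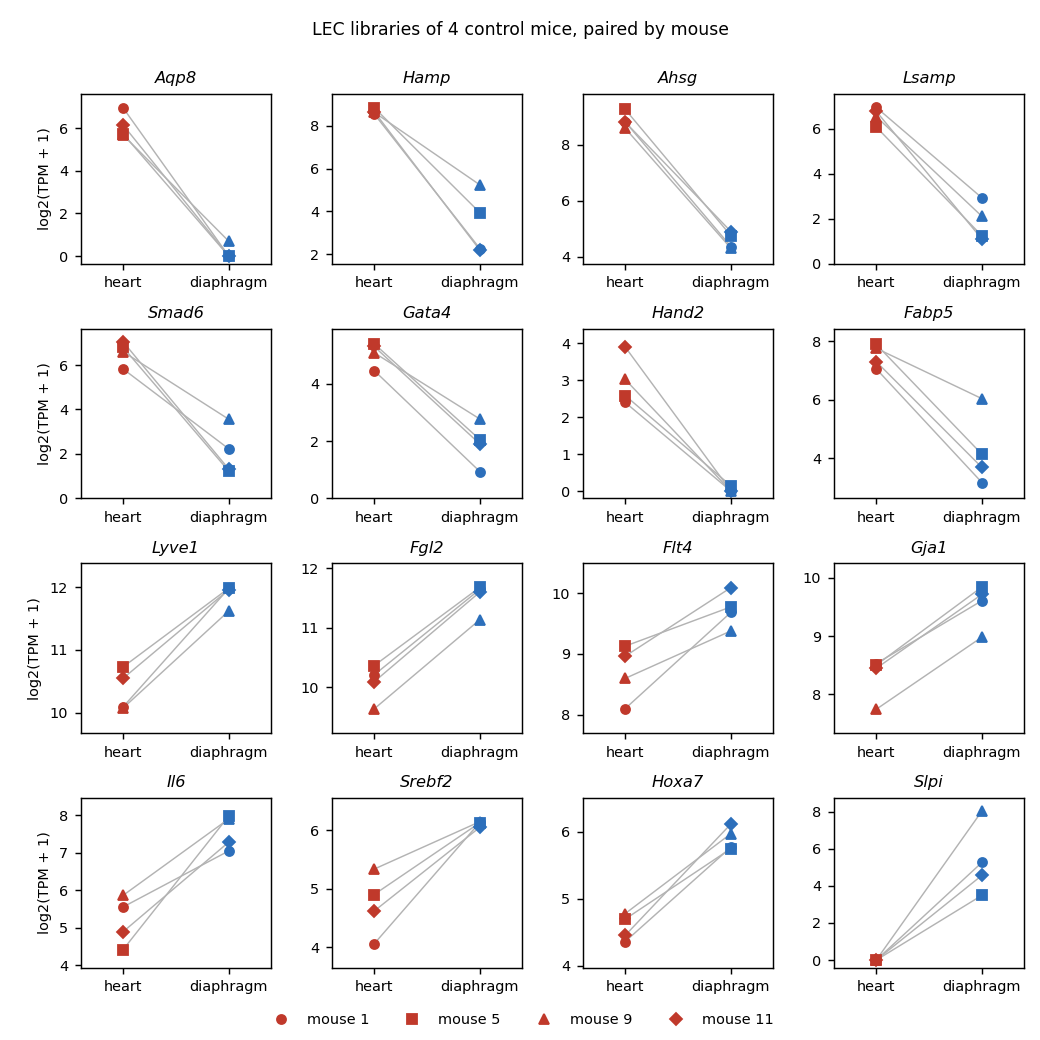
Level of 16 named genes, log2(TPM + 1), in the heart and diaphragm LECs of 4 mice, with a symbol for each mouse and a line joining its libraries. Aqp8, Hamp, Ahsg, Lsamp, Smad6, Gata4, Hand2 and Fabp5 lie higher in the heart library of every mouse, and Lyve1, Fgl2, Flt4, Gja1, Il6, Srebf2, Hoxa7 and Slpi higher in the diaphragm library of every mouse.

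Members of the lists of fatty acid uptake and of blood endothelium were also higher in the heart. Of 14 genes of fatty acid uptake, all tested, 4 rose in heart LECs and 0 in diaphragm LECs (0.627% and 0.420% of all genes tested). The list median was 0.246, and 0.086 without mouse 5. Without mouse 9 the calls of Fabp4 and Cd36 were lost. The fatty acid binding protein Fabp5 was at 132, 237, 216 and 157 TPM in heart LECs and at 8.01, 16.6, 64.8 and 11.9 TPM in diaphragm LECs, with the highest diaphragm value in mouse 9 (3.25, SE 0.34, adjusted p = 0.00109). Fabp4 was at 1223, 448, 1593 and 731 TPM against 80.8, 251, 647 and 169 TPM, with overlap between the tissues (2.04, SE 0.38, adjusted p = 0.0364). The fatty acid transporter Cd36 was at 289 ± 101 TPM against 101 ± 52.3 TPM, and lipoprotein lipase (Lpl), which frees fatty acids from lipoproteins, at 124 ± 44.6 TPM against 43.5 ± 6.81 TPM. These 4 genes were higher in heart BECs than in heart LECs: Fabp4 had 10075 TPM there, Fabp5 1140, Cd36 2736 and Lpl 344 TPM. Lpl had a higher mean in cardiomyocytes, 400 TPM, than in heart BECs, and the others had a lower one.

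The same held for the 14 BEC markers, of which 3 rose in heart LECs (Flt1, Vwf and Emcn) and 0 in diaphragm LECs, with 12 of 14 higher in heart and a median of 0.731. Flt1, a decoy receptor for VEGF-A, was at 113, 95.1, 138 and 97.4 TPM in heart LECs and at 4.96, 7.96, 32.2 and 3.65 TPM in diaphragm LECs (3.54, SE 0.38, adjusted p = 0.00125). Heart BECs had 409 TPM of Flt1. Von Willebrand factor (Vwf) was at 63.5 ± 17.2 TPM against 12.8 ± 11.9 TPM and 228 TPM in heart BECs. The summed BEC markers ranged from 3411 to 4062 TPM in heart LECs and from 2933 to 3315 TPM in diaphragm LECs, higher in heart in 4 of 4 mice, and the part of BEC RNA in these differences was not tested. In such bulk libraries more cells of a type and more RNA per cell cannot be told apart. Of the 106 heart-higher genes 48 (45.3%) had a higher mean in heart BECs than in heart LECs, against 37.4% of all genes tested.

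Other heart-higher genes were high in heart LECs and low in both other endothelial populations. For 12 of the 106 the heart LEC mean was at least 10 times the heart BEC mean, among them Aqp8, Hamp, Lsamp, Coch, Rnase1, Ephx2 and Pdgfrl. Postn and Enpp2 belong to them too and were named after their values were seen. The share of all genes tested with such a ratio to heart BECs was not counted. A lower level in diaphragm LECs is part of how the 106 genes were picked. Postn, which encodes the matrix protein periostin, was at 731 ± 51.6 TPM in heart LECs, 65.2 ± 27.9 TPM in diaphragm LECs and 26.7 TPM in heart BECs (heart minus diaphragm 3.55, adjusted p = 4.13e-05). Enpp2, which encodes autotaxin, the enzyme that makes lysophosphatidic acid, was at 352 ± 67.2 TPM, 30.6 ± 21.1 TPM and 29.3 TPM in the same order (3.70, adjusted p = 0.000191).

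Among genes of valves and collecting vessels 3 of 19 rose in heart LECs (Fn1, Clu and Gata2) and 1 in diaphragm LECs (Gja1), with a median of 0.607 that was 0.087 without mouse 5 and 0.081 without mice 5 and 9. Fibronectin (Fn1), of which a splice form lies in valve leaflets, was at 275, 345, 302 and 371 TPM in heart LECs and at 64.3, 74.0, 101 and 87.2 TPM in diaphragm LECs. These values form separate groups, 3.96-fold apart in their means (1.98, SE 0.17, adjusted p = 0.000203). Clusterin (Clu) was at 578 ± 110.3 TPM against 175 ± 89.3 TPM (1.81, adjusted p = 0.0023). Gata2, which responds to flow in developing valves, was at 149 ± 33.3 TPM against 62.3 ± 4.81 TPM (1.21, adjusted p = 0.00993). Of 7 flow-responsive genes, Gata2 and thrombomodulin (Thbd, 362 to 594 TPM in heart and 218 to 406 TPM in diaphragm LECs) rose in heart LECs and 0 in diaphragm LECs. Both calls were lost without mouse 9, without mouse 11 and without mice 5 and 9, and that of Thbd also without mouse 5.

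Connexin 43 (Gja1), a gap junction protein of lymphatic valves and capillaries, went in the opposite direction to Fn1, Clu and Gata2. It was at 368, 362, 213 and 348 TPM in heart LECs and at 779, 917, 505 and 840.1 TPM in diaphragm LECs, without overlap (-1.23, SE 0.12, adjusted p = 0.000786). Of 14 junction genes Gja1 and the tight junction protein occludin (Ocln, 11.2 ± 3.76 TPM in heart and 0.786 ± 0.42 TPM in diaphragm LECs, 2.76, adjusted p = 0.0399) were the members that passed, and the median was -0.105. The Ocln call was lost without any single mouse.

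Several genes of lymphatic identity were lower in heart LECs. Of 19 such genes 4 rose in diaphragm LECs (Lyve1, Fgl2, Mmrn1 and Flt4; 0.420% of all genes tested rose there), 0 rose in heart LECs, and 17 of 19 had a lower value in heart, with a median of -0.513. Lyve1, the hyaluronan receptor of capillary LECs, was at 1091, 1697, 1077 and 1495 TPM in heart LECs and at 4039, 4050, 3150 and 3986 TPM in diaphragm LECs. Diaphragm LECs had 2.84 times the heart mean, and the tissues did not overlap (-1.53, SE 0.12, adjusted p = 0.000191). Fgl2, a fibrinogen-like protein, was at 1097 ± 221 TPM against 2956 ± 476 TPM (-1.44, adjusted p = 0.000137). Mmrn1, a multimerin of LECs, was at 1870 ± 389 TPM against 3864 ± 487 TPM (-1.06, adjusted p = 0.00127). Flt4 was at 273, 558, 386 and 498 TPM in heart LECs and at 822, 875, 664 and 1091 TPM in diaphragm LECs, about 2.01 times higher (-1.04, SE 0.16, adjusted p = 0.0123).

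Not every marker passed the test. Prox1 differed by -0.40 (SE 0.15, adjusted p = 0.304) and Pdpn by -0.71 (SE 0.19, adjusted p = 0.137). Prox1 itself controls the eGFP by which the cells were sorted. The summed markers of lymphatic identity ranged from 25087 to 35432 TPM in heart LECs and from 41165 to 49296 TPM in diaphragm LECs, lower in heart in 4 of 4 mice. With 4 mice the exact sign-flip test of a single value cannot go below 0.125 (two-sided), and the sum gave that p (0.312 adjusted over 15 such measures). All 8 members of the capillary list were lower in heart LECs, with a median of -0.75, but Lyve1 was the single member that passed. The list includes Pdpn, which the paper places mainly in the pre-collectors and collectors of the heart.

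**Figure D3:**
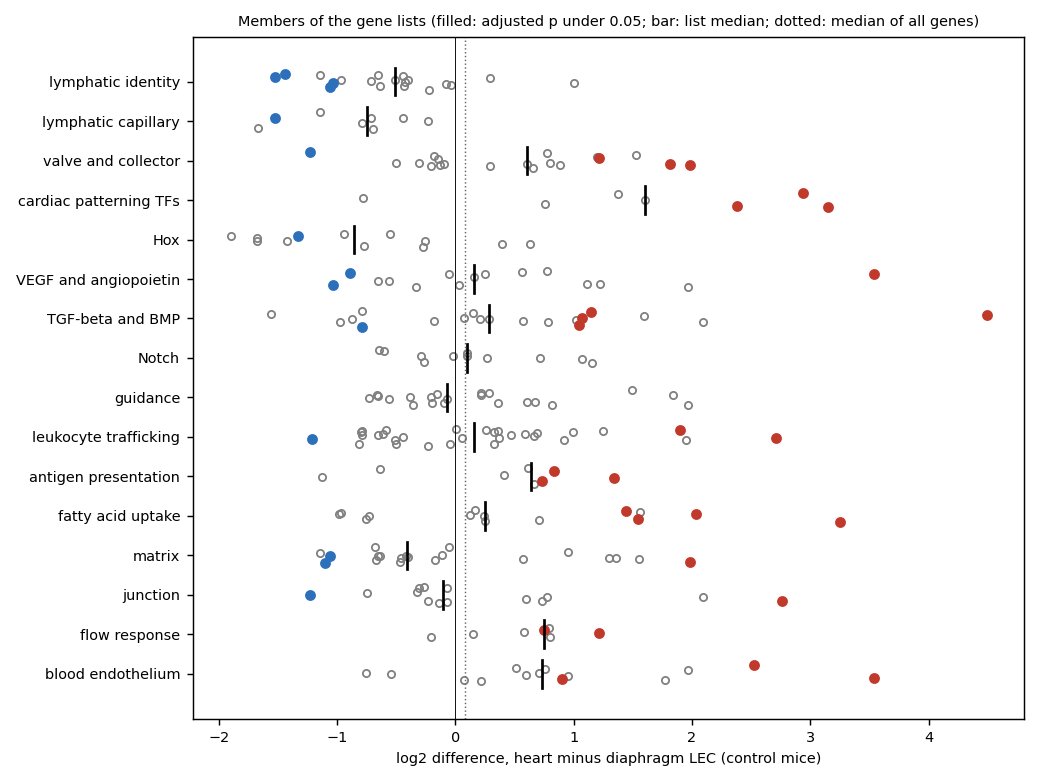
Differences (heart minus diaphragm, log2(TPM + 1)) of the tested members of the gene lists, one point per gene, with the list median as a bar, the median of all genes as a dotted line and the genes past an adjusted p of 0.05 filled. Lymphatic identity genes lie mostly below zero with a median of -0.513, and cardiac patterning factors mostly above with a median of 1.605.

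Around the VEGF receptors the 2 tissues thus differed in both directions. Of 15 genes of the VEGF and angiopoietin axis Flt1 rose in heart LECs, and Flt4 and angiopoietin 2 (Angpt2) rose in diaphragm LECs. Angpt2, a ligand of Tie receptors, was at 109.7 ± 25.6 TPM in heart and 203 ± 35.9 TPM in diaphragm LECs (-0.89, adjusted p = 0.0301). The co-receptor Nrp1 was at 58.4 ± 31.8 TPM against 15.3 ± 11.6 TPM and missed the threshold (1.97, adjusted p = 0.054). The list median was 0.155, and it turned to -0.094 without mouse 11. The Angpt2 call was lost without mouse 5, 9 or 11 and after quantile normalization, and the Flt4 call without mouse 9 or 11.

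Hox genes carry the positional code of the embryo along its axis. Of 39 Hox genes 12 passed the filter on low values, and 10 of these 12 were lower in heart LECs, with a median of -0.859, but only Hoxa7 passed the test. Hoxa7 was at 19.5, 24.9, 26.4 and 20.9 TPM in heart LECs and at 53.6, 52.8, 61.8 and 68.4 TPM in diaphragm LECs, with no overlap (-1.33, SE 0.24, adjusted p = 0.0301). Heart BECs had 2.11 TPM of Hoxa7. Its call was lost without any single mouse, with the difference between -1.54 and -1.22 over all alternatives. Of 10 other positional factors 0 passed in either direction in limma (1 at an unadjusted p under 0.05).

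Further diaphragm-higher genes encoded a cytokine, a signalling inhibitor, a lectin and receptors. Interleukin 6 (Il6) was at 46.0, 20.4, 57.3 and 28.8 TPM in heart LECs and at 132, 252, 239 and 155 TPM in diaphragm LECs (-2.37, SE 0.30, adjusted p = 0.00338). Every diaphragm library lay above every heart library. Tnfaip3, which encodes the NF-kappaB inhibitor A20, was at 28.0 ± 1.41 TPM against 83.1 ± 15.0 TPM (-1.52, adjusted p = 0.00949). Galectin 3 (Lgals3), a lectin of macrophages and epithelia, was at 7.58 ± 6.16 TPM against 69.4 ± 7.79 TPM (-3.30, adjusted p = 0.00378), with all diaphragm libraries between 61.6 and 78.8 TPM. F2rl1, a receptor cleaved by proteases, was at 15.0 ± 9.02 TPM against 50.8 ± 18.3 TPM (-1.80, adjusted p = 0.012). The decoy chemokine receptor Ackr2, which clears inflammatory chemokines in LECs, was at 94.7, 169, 83.0 and 135 TPM in heart LECs and at 281, 319, 212 and 281 TPM in diaphragm LECs (-1.22, SE 0.16, adjusted p = 0.00553). Of 15 immediate early and heat shock genes only Hspa1a passed, higher in heart LECs (1087 ± 249.9 against 382 ± 90.4 TPM, 1.51, adjusted p = 0.00125), and its near-identical copy Hspa1b did not (0.74, adjusted p = 0.16), so reads of the pair may be split between them.

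Leukocyte traffic and antigen presentation showed the opposite order for some members. Of 30 trafficking genes Cxcl16 and Vcam1 rose in heart and Ackr2 in diaphragm LECs, with a median of 0.158 that turned to -0.065 after quantile normalization. Without mouse 5 the calls of Cxcl16 and Vcam1 were lost, and 0 trafficking genes passed in limma as higher in heart LECs. The chemokine Cxcl16 was at 34.0, 34.2, 33.2 and 31.1 TPM in heart LECs and at 2.00, 4.14, 7.36 and 4.77 TPM in diaphragm LECs, a clear separation (2.71, SE 0.40, adjusted p = 0.0094). The adhesion molecule Vcam1 overlapped through the diaphragm library of mouse 9, at 65.3 TPM (1.89, adjusted p = 0.0339). Both Cxcl16 and Vcam1 had a higher mean in heart BECs than in heart LECs, at 67.4 and 345 TPM. Of 8 antigen presentation genes 3 of class I rose in heart LECs and 0 in diaphragm LECs. H2-K1 was at 1732 ± 423 TPM against 678 ± 143 TPM (1.34, adjusted p = 0.000203), H2-D1 at 2934 ± 399 TPM against 1757 ± 132 TPM (0.73, adjusted p = 0.00965), and their light chain B2m at 2977 ± 671 TPM against 1647 ± 206 TPM (0.84, adjusted p = 0.0088). Without mouse 9, and without mice 5 and 9, H2-K1 alone passed. Class I genes are near copies of each other, and reads may be split among them. All 3 were also higher in heart LECs in 7 of 7 treated mice. In heart BECs the means of H2-K1, H2-D1 and B2m were higher still, at 2427, 3991 and 5220 TPM. The part of BEC RNA in these differences was not tested. Of 11 interferon response genes 0 passed in limma (1 at an unadjusted p under 0.05), with a median of 0.297.

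Matrix genes and genes of cholesterol synthesis were among the remaining diaphragm-higher genes. Of 20 basement membrane and matrix genes Fn1 rose in heart LECs and Fbln2 and Mmrn1 in diaphragm LECs, with a median of -0.411. Without mice 5 and 9 the counts were 3 in heart and 0 in diaphragm LECs, with a median of -0.486. Fibulin 2 (Fbln2) was at 142 ± 31.5 TPM against 298 ± 15.1 TPM (-1.10, adjusted p = 0.00903). The fibronectin domain protein Fndc1 was at 82.5, 338, 215 and 227 TPM in heart LECs and between 493 and 552 TPM in diaphragm LECs (-1.42, adjusted p = 0.0254), and the RhoGEF and kinase Bcr at 473 ± 155 TPM against 1287 ± 463 TPM (-1.44, adjusted p = 0.000337). Srebf2, the factor that induces cholesterol synthesis genes, was at 26.9 ± 9.97 TPM against 68.4 ± 2.06 TPM (-1.39, adjusted p = 0.0364), and the sterol demethylase Cyp51 at 4.97 ± 1.93 TPM against 22.7 ± 6.42 TPM (-2.02, adjusted p = 0.0466). Both of these calls were lost without any single mouse.

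Muscle RNA was measured in every library, since both tissues are muscle. Summed over 12 cardiac muscle genes, heart LECs had 207, 97.8, 195 and 245 TPM and diaphragm LECs 23.8, 683, 40.5 and 46.7 TPM in mice 1, 5, 9 and 11. The diaphragm library of mouse 5 therefore held more cardiac muscle RNA than any heart LEC library, with Nppa at 294.6 TPM. Cardiomyocyte libraries of the same mice had 25698 to 65754 TPM, so that the cardiac sum of heart LECs was 0.149% to 0.954% of that of the cardiomyocytes of the same mouse. Subtracting that percentage of each cardiomyocyte value would remove at most 1.69% of the heart LEC mean of any heart-higher gene, that of Lpl, and 0 of the 106 reached the limit of 25%. After this subtraction 175 genes passed, 175 of them among the 177. Corin, an atrial protease, was the single heart-higher gene of the cardiac list (11.1 ± 4.02 against 0.399 ± 0.379 TPM, 3.10, adjusted p = 0.0244), with a carried-over part of 1.52%.

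Skeletal muscle RNA moved with the diaphragm. Of 21 skeletal muscle genes 11 passed the filter, 4 rose in diaphragm LECs and 0 in heart LECs, with a median of -2.509. Fast troponin C (Tnnc2) was listed at 0 TPM in all 4 heart LEC libraries and was at 18.1, 60.6, 96.5 and 23.2 TPM in diaphragm LECs. Tnni2 and Tnnt3, the other subunits of the fast troponin complex, were likewise listed at 0 TPM in all heart LEC libraries and ranged from 11.5 to 42.8 TPM and from 7.51 to 39.6 TPM in diaphragm LECs. Skeletal actin (Acta1) was at 5.27, 1.47, 22.7 and 0 TPM in heart LECs and at 22.2, 139, 137 and 32.5 TPM in diaphragm LECs. The skeletal sum ranged from 85.2 to 382 TPM in diaphragm LECs and from 12.8 to 45.9 TPM in heart LECs. As no library of diaphragm muscle was part of the series as used here, the share of other diaphragm-higher genes that came with this RNA was not tested. Without mice 5 and 9 these 4 calls were lost.

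Markers of further cell types moved with the tissue or with single libraries. Fibroblast markers summed to 1331, 879, 1406 and 1428 TPM in heart LECs and to 157, 244, 1167 and 160 TPM in diaphragm LECs, and Dcn, the proteoglycan decorin, made up most of this sum with 1117 ± 219 against 252 ± 282 TPM (2.66, adjusted p = 0.00688). Pdgfra, a growth factor receptor of fibroblasts, rose as well (4.38, adjusted p = 0.00251), so 2 of 9 fibroblast markers rose in heart and 0 in diaphragm LECs. Of the 9, however, 6 were lower in heart, and the list median was -0.238, or 0.029 without mouse 5 and 0.442 without mice 5 and 9. The collagens Col1a1, Col1a2 and Col3a1 were lower in heart in 4 of 4 mice and did not pass (-1.47, -1.72 and -1.08, adjusted p = 0.323, 0.149 and 0.21). Their part in the heart-higher genes was not tested. Mesothelial markers without Gpm6a summed to 0.736 to 5.99 TPM in heart and 13.0 to 147 TPM in diaphragm LECs. Krt19, Upk3b and Msln among them missed the threshold, with adjusted p of 0.074, 0.0602 and 0.0735. Slpi, a protease inhibitor of epithelia, was listed at 0 TPM in all heart LEC libraries and was at 37.5, 10.2, 261 and 22.7 TPM in diaphragm LECs (-5.34, SE 0.71, adjusted p = 0.00534). Npy, a neuropeptide, and Fmod, a proteoglycan of tendon, rose in diaphragm LECs too, and Fmod reached 138 TPM in the diaphragm library of mouse 9 against 5.89 to 9.27 TPM in those of the other mice.

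That library also held 351 TPM of summed Schwann cell markers against at most 5.33 TPM in any other library, and 705 TPM of mural cell markers. Haemoglobin followed neither tissue, as the 5 erythroid genes summed to 2186 and 2082 TPM in the heart LECs of mice 1 and 9, to 834 and 753 TPM in the diaphragm LECs of mice 5 and 9, and to 37.3 TPM or less in the other 4 libraries. The leukocyte marker sum was 34.0 to 143 TPM in heart and 99.0 to 337 TPM in diaphragm LECs. Of the leukocyte, erythroid, platelet, Schwann and mesothelial markers 0 passed in limma in either direction (3, 0, 2, 0 and 6 at an unadjusted p under 0.05), and of 17 genes shared by cardiac and skeletal muscle 0 passed (7 at that p), while the pericyte receptor Pdgfrb (28.5 ± 27.2 against 3.80 ± 4.25 TPM, adjusted p = 0.0382) was the mural marker that rose in heart LECs. Of 7 mural markers 5 were lower in heart, with a median of -0.18, and without mice 5 and 9 that median was 0.536 and the Pdgfrb call was lost.

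**Figure D4:**
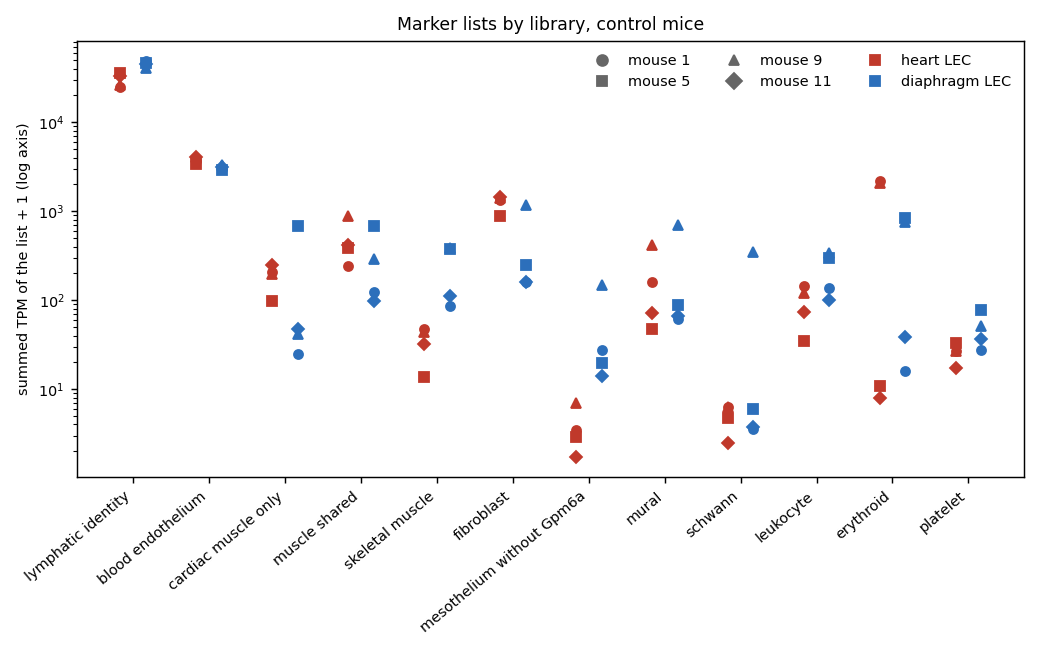
Summed TPM plus 1 (log axis) of 12 marker lists in each of the 8 libraries, by tissue (colour) and mouse (symbol). The diaphragm library of mouse 5 stands out by its cardiac sum of 683 TPM and that of mouse 9 by its fibroblast sum of 1167 TPM and Schwann cell sum of 351 TPM.

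Gene groups without a call were also counted. Of 11 Notch pathway genes, 6 genes of adrenomedullin and apelin signalling, 21 guidance genes, 6 cell cycle genes and 15 genes encoded by mitochondrial DNA 0 passed the limma test in either direction, with 2, 2, 6, 2 and 3 at an unadjusted p under 0.05 and medians of 0.098, 0.223, -0.068, 1.076 and 0.258. The Notch median turned to -0.266 after quantile normalization. The 5 satellite cell and 6 adipocyte markers were too low to be tested. The adrenomedullin receptor Calcrl was at 137 ± 77.5 TPM in heart and 228 ± 65.6 TPM in diaphragm LECs and lay just above the threshold (-0.85, adjusted p = 0.0621). Over all 16909 genes 2174 had an unadjusted p under 0.05.

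The same contrast was then read in the 7 treated mice, which had no part in the fit. Of the 177 genes 176 had the same sign of the mean difference there, with Acta1 as the exception (0.02). All 106 heart-higher genes were higher in heart, where 53.7% of all genes tested were, and 92 of them in each of the 7 mice. Of the 71 diaphragm-higher genes 57 were lower in heart in each of the 7 mice. The share of all genes tested with 1 direction in each of these 7 mice was not counted. The median differences were 1.95 and -1.02, against 2.47 and -1.14 in the control mice. Among the named genes Lyve1 differed by -1.55, Smad6 by 3.71, Hand2os1 by 3.74 and Hamp by 4.99 in the treated mice. Others came closer together there, such as Fbln2 (-0.26 against -1.10 in control mice) and Fmod (-1.39 against -3.43). Angpt2 differed by -0.44 against -0.89, and 2 of the 7 treated mice had it higher in heart LECs.

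**Figure D5:**
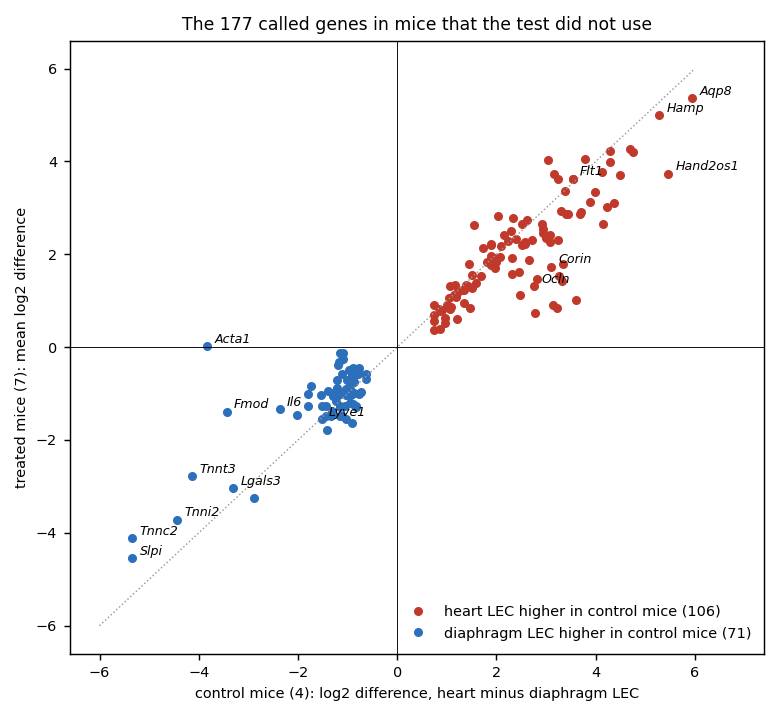
Mean difference (heart minus diaphragm, log2(TPM + 1)) in the 7 treated mice (vertical axis) against the difference in the 4 control mice (horizontal axis) for the 177 genes, with the line of equal values. All but 1 gene, Acta1, keep their sign.

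Of the 69 called genes that the naming rule gives, 29 kept their call under each of the 16 alternatives run, among them Lyve1, Fgl2, Smad6, Hand2os1, Aqp8, Hamp, Ahsg, Flt1, Fn1, Id3 and Gja1. Of the others, all but Mmrn1, Rab11fip1, Tnnc2, Tnni2 and Tnnt3 lost it without mouse 11, and Pdgfrb kept it under 4 of the 16. With 4 mice, 2 to a batch, age and batch are held constant within each pair. The p-values rest on the spread of the heart minus diaphragm differences between these mice. In limma the variance of each gene is also drawn towards a trend over all genes tested, so they do not rest on that spread alone.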

How the data were processed

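RNA-seq of LECs from heart and diaphragm was taken from 8 control libraries of 4 mice, grouped and paired by the labels. Ages are those of the labels, in months, although the paper gives weeks. RNA was amplified with a Smart-Seq low-input kit and made into libraries with Nextera XT, which keep no strand. Per the labels the authors aligned reads to GRCm38 with STAR 2.5.3a, quantified them with Salmon 0.12.0 and deposited TPM for 54752 genes, of which 54723 matched a symbol in GENCODE vM21, the source of the coordinates. Columns sum to 997657 to 999929 TPM. The values keep no reads, so depth is unknown and the number of libraries limits the precision.

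The filter on low values kept the 16909 genes that reached 1 TPM in 4 or more of the 8 libraries, which were fitted as log2(TPM + 1) with limma 3.58.1 in R 4.3.3, with a variance trend, the mouse as a fixed block and Benjamini-Hochberg adjusted p at a threshold of 0.05. A pseudocount understates the change of low genes. The block follows the animal label, and the deviations of the 2 libraries of a mouse correlated by 0.182, 0.239, 0.079 and -0.124 in mice 1, 5, 9 and 11. Single sums were compared with exact two-sided sign-flip tests, adjusted over 15 measures. The script was tested on simulated data with normally spread noise. Of 200 genes given a log2 difference of 1 it called 25 in the right direction. At a difference of 2 it called 129 of 200, and at 3 it called 187 of 200. A gene or list without a call may therefore still differ between the tissues.

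The genes named were the 15 largest differences per direction among genes with an adjusted p under 0.05, the same sign in 4 mice, no overlap, a mean of at least 5 TPM and no membership in muscle lists, with at most 6 called members per list, or 3 members where none was called, and Prox1, Lyve1 and Pdpn. Not every gene picked this way is given in the text. The members and lists were chosen with earlier results of these data known. The alternative without mice 5 and 9 was added after seeing the data, as were the promoter motifs. Carried-over cardiac RNA was estimated as the ratio of the summed cardiac genes in heart LECs to those in cardiomyocytes of the same mouse.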

Additional observations from a re-analysis of the deposited data

Results flagged for a closer look

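In each tissue the 4 libraries were searched for one far from the other 3 by Dixon's ratio, over 252 groups of 4 libraries (the named genes and the marker sums), and 27 groups had one. The limit is set for about 1 in 20 groups of independent, normally spread values. TPM values are skewed, the groups share their libraries, and 3 libraries at 0 give a ratio of 1 for any other value in the remaining one. The count therefore cannot be set against chance. Of the 27, 12 were the diaphragm LEC library of mouse 9. In that library Dcn was at 674 TPM, Fmod at 138, Mbp at 206, Vcam1 at 65.3, Apln at 4.38, Aqp8 at 0.62 and Oas1a at 1.85 TPM, and the mural and Schwann cell sums were 705 and 351 TPM, all above the other diaphragm libraries. Its Lyve1 (3150 TPM), Fgl2 (2249 TPM) and Hey2 (0.0427 TPM) lay below them.

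The heart LEC library of mouse 9 was apart by Fmod at 4.34 and Gja1 at 213 TPM, and that of mouse 1 by Cdk1 at 0, Slit2 at 42.4, a satellite cell sum of 1.22 and a mesothelial sum, mostly Gpm6a, of 300.2 TPM. The heart LEC library of mouse 5 was apart by Msln at 0.121, Npy at 0.334 and Upk3b at 0.0721 TPM and by its fibroblast sum of 879 TPM, and that of mouse 11 by C1qc at 2.34 TPM. In diaphragm LECs, Hand2 at 0.104 and Ocln at 0.163 TPM stood apart in mouse 5, Eng at 186 TPM in mouse 1 and Hspa1a at 247 TPM in mouse 11. The causes were not tested.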

How the results depend on the processing

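The 177 genes (106 heart-higher, 71 diaphragm-higher) came from 4 pairs. Leaving out 1 mouse gave 65 to 161 genes, 47 to 102 heart-higher and 18 to 59 diaphragm-higher, lowest without mouse 11. Without the mouse as a replicate block, 157 genes passed with age and batch as covariates and 138 without covariates, of which 45 were diaphragm-higher. With no filter on low values 96 passed among 41918 tested (67 and 29), and with a pseudocount of 0.1 the diaphragm-higher genes were 45. Adding all LEC libraries with the mouse as a random effect gave 580 (360 and 220), batch 2 alone 390 (278 and 112), and leaving out mice 5 and 9, chosen after seeing the data, 83 (63 and 20). The haemoglobin genes changed sign within batches, with Hba-a1 at -3.07 in batch 2, and Hba-a2 at 4.32 and Hbb-bs at 4.23 in batch 1. Of the 69 called genes that the naming rule gives, 29 kept the call under all 16 alternatives run, and 68 under the fit of all LEC libraries, 61 under quantile normalization, 54 with a pseudocount of 0.1, 43 without mouse 9 and 34 without mouse 11. The causes were not tested. Pdgfrb kept its call in 4 of 16, and Corin, Ocln, Cyp51, Npy, Hand2, Thbd, Acta1, Srebf2, Mfsd4a, Gata6, Angpt2 and Fmod also lost it in most. Depth, and with it counting error, is unknown for all values.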

Other observations

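A wider set of 23 genes of cholesterol synthesis and its control was assembled after the values of Srebf2 and Cyp51 were seen, so it is given without a test. Of these genes 22 passed the filter on low values, 19 had a higher level in diaphragm LECs and 13 had it in 4 of 4 mice, with a median difference of -1.11 against 0.079 over all genes tested. The members below the threshold included Idi1, which makes an isoprenoid building block, at 8.82, 7.68, 5.53 and 7.86 TPM in the heart LECs of mice 1, 5, 9 and 11 and at 30.1, 24.5, 15.6 and 20.5 TPM in their diaphragm LECs (limma adjusted p = 0.116). Sc5d, a sterol desaturase, was at 19.1 ± 6.14 TPM against 46.0 ± 5.67 TPM, and Insig1, which holds the SREBP complex in the endoplasmic reticulum, at 12.7 ± 9.08 TPM against 31.7 ± 4.58 TPM (SD, 4 mice). In the treated mice 21 of the 22 had a higher mean in diaphragm LECs.

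The immunoglobulin light chain gene Igkc, noticed after its values were seen, was at 981 TPM in the diaphragm LEC library of mouse 9, at 45.5 TPM in that of mouse 5 and at 10.7 TPM or less in the other 6 libraries.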
